A study of Mus musculus with 4 samples.

Results

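Toll-like receptors and the proteins that serve them were examined in liver RNA through 10 genes, chosen by symbol with earlier results of these data known and with no threshold on a measured value. They comprise 4 receptors (Tlr2, Tlr3, Tlr4 and Tlr5), 3 genes of lipopolysaccharide recognition (Cd14, Ly96 and Lbp), the adaptors Myd88 and Ticam1, and the kinase gene Irak1. All 10 were present among the 24138 rows of the deposited table. Expression was measured by bulk RNA sequencing of poly(A)-enriched liver libraries, 1 per mouse, from 4 male C57BL/6J animals that were 18 weeks old. Every animal had been given the FAT-MASH diet and RvD1. The diet is a model of MASH, the steatohepatitis that accompanies metabolic dysfunction, and RvD1 is resolvin D1, a pro-resolving lipid mediator made from an omega-3 fatty acid. The 4 livers form 1 group and are named livers 1 to 4 after the labels. Untreated, diet-only and vehicle-treated livers were not analysed here, so the values describe levels and the spread between animals, and no effect of the diet or of RvD1 can be read from them.

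Toll-like receptors are membrane proteins that recognise conserved microbial structures through a leucine-rich ectodomain and signal through a cytoplasmic TIR domain. TLR2 recognises bacterial lipoproteins as a heterodimer with TLR1 or TLR6, TLR4 recognises lipopolysaccharide, TLR5 recognises flagellin, and TLR3 recognises double-stranded RNA in endosomes. The signal passes through MyD88 and the IRAK kinases to NF-kB, or through TRIF, the product of Ticam1, to IRF3 and type I interferon. The liver receives gut-derived microbial products through the portal vein, and Toll-like receptor signalling is widely studied in steatohepatitis for that reason.

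The unit of the deposited values is not stated and was taken as FPKM. FPKM scale fragments by the length of the transcript and by the size of the library, so that, on this reading, levels of different genes can be set side by side. From the values themselves the depth was estimated at 18.8 to 20.1 M fragments per library (M, mega). Only values in a fixed window entered this estimate, and the window limits the depths it can return. It is therefore not an independent measurement, and the fragment numbers and counting errors given below depend on it. A gene was called expressed when its mean reached 1 FPKM, and all 7 hepatocyte markers examined were expressed. In bulk liver a lower value can come from fewer cells of a type or from less RNA per cell, and these cannot be told apart.

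The 10 genes covered a 50.2-fold range of mean level. Lbp was the most abundant at 21.8 ± 4.36 FPKM and Tlr4 the least abundant at 0.434 ± 0.153 FPKM (each SD, n = 4). Tlr4 was also the only member below 1 FPKM. The other 9 were expressed, with a median of 5.21 FPKM, beside 7.83 FPKM over all 10541 expressed genes, which are 43.7% of the rows. All 10 were above 0 in every liver.

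**Figure D1:**
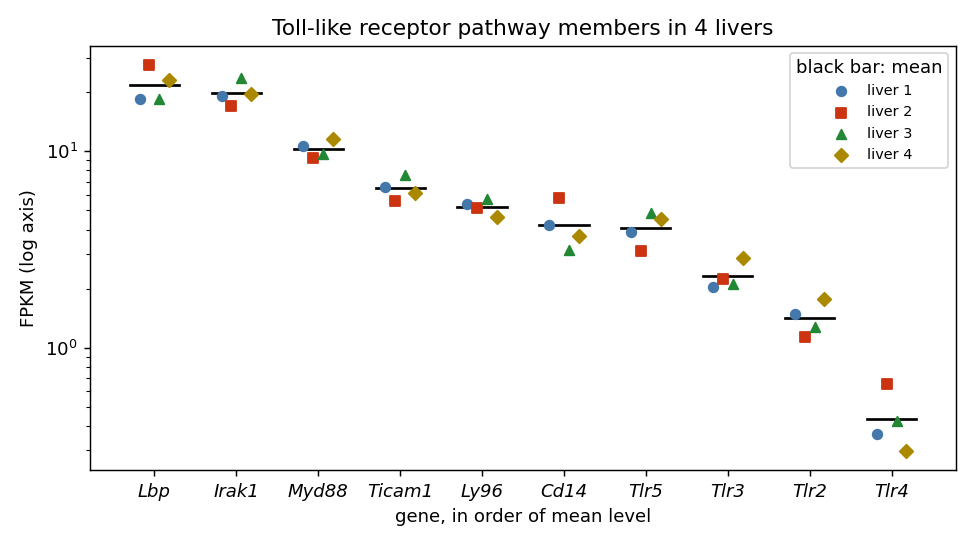
Level of each of the 10 genes in each liver in FPKM on a log axis, in order of mean level, with 1 symbol per liver and a black bar at the mean of 4 livers. Means run from 21.8 FPKM for Lbp to 0.434 FPKM for Tlr4, and liver 2 gives the highest symbol for Lbp, Cd14 and Tlr4.

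Lipopolysaccharide recognition begins with LBP, a secreted plasma protein made mainly by hepatocytes, which takes lipopolysaccharide from bacterial membranes and hands it to CD14. Lbp (XLOC_011907, chromosome 2, 158306493 to 158332852) had 18.4, 27.5, 18.4 and 23.1 FPKM in livers 1 to 4. Liver 2 was the highest and livers 1 and 3 were nearly equal at the bottom, a 1.49-fold range. Liver 2 stood 1.38-fold above the mean of the other livers.

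CD14, a lipid-anchored co-receptor of myeloid cells that also circulates in soluble form, passes lipopolysaccharide on to the TLR4 complex. Cd14 (XLOC_010080, chromosome 18, 36725064 to 36726815) had 4.23, 5.78, 3.15 and 3.72 FPKM in livers 1 to 4, a mean of 4.22 ± 1.13 FPKM (SD, n = 4). Liver 2 was again the highest, 1.56-fold above the mean of the others, while the lowest value was that of liver 3. Its SD of 0.30 on the log2(FPKM + 1) scale was the widest of the 9 expressed members and exceeded that of 89.9% of expressed genes. The SD of Lbp, 0.27, exceeded that of 85.5%.

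The receptor itself was scarce. Tlr4 (XLOC_014398, chromosome 4, 66827811 to 66842796) had 0.365, 0.650, 0.424 and 0.298 FPKM in livers 1 to 4. Liver 2 was the highest, 1.79-fold above the mean of the others, and liver 4 was the lowest. These values rest on an estimated 28.4, 48.7, 32.1 and 21.8 fragments. Counting alone would give a coefficient of variation of about 17.5% at this depth, beside an observed 35.2%.

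MD-2, the product of Ly96, is the subunit of the TLR4 complex that holds the lipid part of lipopolysaccharide. Ly96 (XLOC_000027, chromosome 1, 16688456 to 16709605) had 5.38, 5.13, 5.70 and 4.64 FPKM in livers 1 to 4. It was the steadiest member, with an SD of 0.10 on the log2 scale, and liver 2 lay in the middle of the range. Its coefficient of variation of 8.57% was below the 15.1% that counting alone would give for an estimated 43.9 fragments on a short transcript of 632 bases. That counting error rests on the estimated depth, and whether the livers differ in Ly96 was not tested.

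Within each liver the accessory genes exceeded Tlr4 by a wide margin. Ly96 was 14.7, 7.88, 13.5 and 15.6 times Tlr4 in livers 1 to 4, a geometric mean of 12.5. The ratio was lowest in liver 2, where Tlr4 was at its highest and Ly96 was not. Cd14 was 9.89 times Tlr4 (mean log2 ratio 3.31 ± 0.35 SD, n = 4) and Lbp was 5.22 times Cd14 (2.39 ± 0.24 SD, n = 4), each in the same direction in 4 of 4 livers.

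Among the remaining receptors, Tlr5 was the most abundant. Tlr5 (XLOC_000618, chromosome 1, 182954788 to 182976044) had 3.87, 3.10, 4.83 and 4.52 FPKM in livers 1 to 4, a mean of 4.08 ± 0.767 FPKM (SD, n = 4). Liver 3 was the highest and liver 2 the lowest, a 1.56-fold range. Tlr5 was 2.87 times Tlr2 and 9.67 times Tlr4 as geometric means, and it exceeded both in 4 of 4 livers.

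Tlr3 (XLOC_021269, chromosome 8, 45395665 to 45410539) had 2.04, 2.23, 2.11 and 2.87 FPKM in livers 1 to 4. Liver 4 stood above the other livers, which were close together. The gap from liver 4 to the next liver was 0.774 of the whole range, the largest such ratio among the members but not past Dixon's critical ratio at the 95% level. An antisense gene in the GENCODE annotation, Gm45542, overlaps 477 bases of the Tlr3 span, and the strand setting of the counting is not given in the sources used here.

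Tlr2 (XLOC_013810, chromosome 3, 83836272 to 83841608) had 1.49, 1.13, 1.28 and 1.78 FPKM in livers 1 to 4, a mean of 1.42 ± 0.280 FPKM (SD, n = 4). Liver 4 was the highest and liver 2 the lowest. Its heterodimer partner Tlr1 had 1.30, 1.38, 0.908 and 1.17 FPKM, and Tlr2 exceeded Tlr1 in 3 of 4 livers, and their ranges overlapped. The partner Tlr6 had 0.198 ± 0.0140 FPKM (SD, n = 4), less than Tlr2 by a factor of 7.07. Tlr6 rests on an estimated 13.4 fragments on average. Its coefficient of variation of 7.05% was below the 27.3% that counting alone would give, so the small SD does not make the level precise. Tlr1 and Tlr6 are close paralogues, and reads shared between them make their split uncertain.

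The adaptors and the kinase were more abundant than the 4 receptors. MyD88 joins all Toll-like receptors named here except TLR3 to the IRAK kinases. Myd88 (XLOC_022948, chromosome 9, 119335988 to 119340040) had 10.7, 9.29, 9.68 and 11.5 FPKM in livers 1 to 4, with liver 4 the highest, liver 2 the lowest and a narrow 1.24-fold range. GENCODE gives 365 bases of overlap on the opposite strand with Acaa1a, an abundant peroxisomal thiolase gene at 117 ± 19.1 FPKM (SD, n = 4), which was likewise highest in liver 4 and lowest in liver 2. Its deposited span does not overlap that of Myd88, and any share of its fragments in the value of Myd88 was not tested. GENCODE also places Myd88 within the span of Slc22a14 on the same strand, a gene listed at 0 in livers 1, 3 and 4 and at 0.0251 FPKM in liver 2.

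TRIF, the product of Ticam1, is the adaptor of TLR3 and of endocytosed TLR4. Ticam1 (XLOC_009561, chromosome 17, 56269462 to 56276767) had 6.60, 5.58, 7.61 and 6.14 FPKM in livers 1 to 4, the highest in liver 3 and the lowest in liver 2. Myd88 exceeded Ticam1 in 4 of 4 livers, by 1.62, 1.66, 1.27 and 1.87 times. The bridging adaptors differed in level, with Tirap (MAL), which brings MyD88 to TLR2 and TLR4, at 4.71 ± 0.376 FPKM and Ticam2 (TRAM), which brings TRIF to TLR4, at 0.257 ± 0.165 FPKM (each SD, n = 4). Ticam1 was thus 61.9, 16.02, 58.7 and 13.9 times Ticam2 in livers 1 to 4. Ticam2 rests on an estimated 19.8 fragments on average.

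IRAK1 is the kinase that carries the signal from MyD88 and IRAK4 to TRAF6. Irak1 (XLOC_023776, chromosome X, 74013914 to 74023936) had 19.2, 17.0, 23.5 and 19.7 FPKM in livers 1 to 4, a mean of 19.9 ± 2.72 FPKM (SD, n = 4). Liver 3 was the highest, liver 2 the lowest, and livers 1 and 4 were close to each other. Irak1 was 4.82 times the upstream kinase gene Irak4 and 3.13 times Irak2, and in each case it was higher in 4 of 4 livers. Irak3, which encodes the inhibitory IRAK-M of myeloid cells, was at 0.498 ± 0.0681 FPKM (SD, n = 4).

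In the order of mean levels, 4 of the 9 neighbouring pairs could not be separated by their ranges. Lbp and Irak1 had a mean log2 ratio of 0.12 ± 0.45 (SD, n = 4), and each was the higher in 2 livers. Cd14 and Tlr5 had a mean log2 ratio of 0.03 ± 0.65, with the order likewise held in 2 of 4 livers. Ly96 exceeded Cd14 in 3 of 4 livers, by 0.34 ± 0.42. Ticam1 exceeded Ly96 in 4 of 4 livers, by 0.31 ± 0.14, although the ranges of the genes overlapped. The remaining 5 pairs, from Irak1 over Myd88 down to Tlr2 over Tlr4, had separate ranges and the same order in 4 of 4 livers. Without liver 2 both of the closest pairs changed places, with Irak1 at 20.8 above Lbp at 19.9 FPKM and Tlr5 at 4.41 above Cd14 at 3.70 FPKM.

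The members fell into different patterns over the animals. Lbp, Cd14 and Tlr4 were highest in liver 2, so 3 of 10 members peaked there, beside 24% of the 14015 rows with values above 0 in all livers. Irak1, Ticam1, Ly96 and Tlr5 were highest in liver 3, 4 of 10 beside 26.4% of rows, and Myd88, Tlr3 and Tlr2 in liver 4, 3 of 10 beside 29.9%. In liver 1, 0 of 10 members were highest, beside 19.7% of rows. These counts are near the shares of all rows.

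Liver 2 held the lowest value of 5 of 10 members, namely Irak1, Myd88, Ticam1, Tlr5 and Tlr2, beside 28.1% of rows. Over the 45 other genes of the pathway liver 2 held the lowest value of 10, or 22.2%, and among the 14 signalling kinases and ligases the lowest value of 3. Irak1, Ticam1 and Tlr5 were both highest in liver 3 and lowest in liver 2, which held for 11.5% of rows. On the log2(FPKM + 1) scale Irak1 lay 0.24 above its own mean in liver 3 and at -0.20 in liver 2, Ticam1 at 0.21 and -0.18, and Tlr5 at 0.21 and -0.30. Cd14 was opposite, at -0.31 in liver 3 and 0.40 in liver 2. Dividing each library by a median-ratio size factor left the highest and the lowest liver of all 10 genes as they were.

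**Figure D2:**
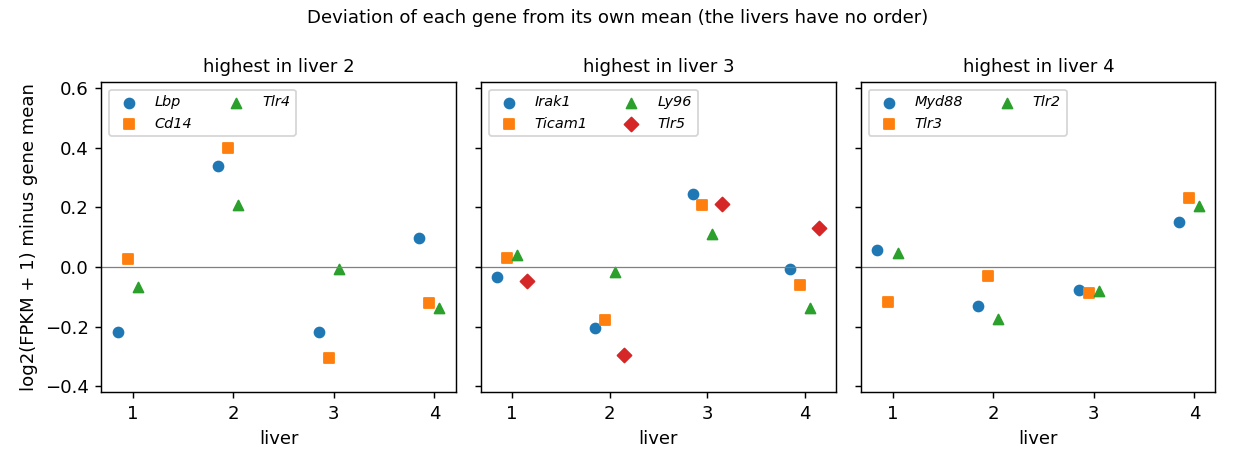
Deviation of each gene from its own mean over the 4 livers, in log2(FPKM + 1), in 3 panels by the liver with the highest value and with 1 symbol per gene. Cd14 and Lbp stand at 0.40 and 0.34 in liver 2, where Irak1, Ticam1 and Tlr5 are below 0.

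Promoter sequences are shown for the members that shared a pattern and had a window in the set of RefSeq windows used here. A window was held for 6 of the 10 genes. Tlr4, Cd14, Ly96 and Lbp had no entry in that set. Each window is the 250 bases before the annotated start in GRCm38.p6, 5′ to 3′ on the strand of the gene. Capitals mark matches on either strand to 4 motifs: the kappa-B consensus bound by NF-kB, the interferon regulatory element, a pair of GAAA repeats with 2 bases between them, the STAT element TTCNNNGAA, and the C/EBP element TTGCNNAA. Of 32851 such windows in the table, 7.25%, 2.98%, 7.02% and 9.56% held a match to these motifs in that order. The genes highest in liver 4 were:
Tlr2 (chr3:83841609-83841858, minus strand): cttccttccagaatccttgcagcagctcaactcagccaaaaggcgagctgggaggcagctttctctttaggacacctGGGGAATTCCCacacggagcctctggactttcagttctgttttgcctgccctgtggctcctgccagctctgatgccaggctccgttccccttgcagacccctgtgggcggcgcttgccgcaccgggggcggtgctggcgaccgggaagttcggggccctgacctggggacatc
Tlr3 (chr8:45410381-45410630, minus strand): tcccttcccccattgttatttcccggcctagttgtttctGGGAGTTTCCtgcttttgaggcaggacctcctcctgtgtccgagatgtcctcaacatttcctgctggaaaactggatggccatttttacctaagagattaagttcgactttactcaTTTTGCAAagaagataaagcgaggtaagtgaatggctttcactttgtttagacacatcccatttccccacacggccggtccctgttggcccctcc
Myd88 (chr9:119340019-119340268, minus strand): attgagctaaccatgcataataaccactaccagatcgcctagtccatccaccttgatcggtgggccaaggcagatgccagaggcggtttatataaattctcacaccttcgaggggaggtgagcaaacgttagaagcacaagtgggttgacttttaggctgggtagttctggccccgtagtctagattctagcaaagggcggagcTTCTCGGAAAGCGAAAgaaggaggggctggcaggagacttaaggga

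In the Tlr2 window the capitals are a pair of overlapping kappa-B matches, GGGGAATTCC and GGGAATTCCC, that begin 173 and 172 bases before the start. The Tlr3 window held a kappa-B match 211 bases before the start, GGGAGTTTCC, and a C/EBP match 95 bases before it. The deposited Tlr3 span reaches to 45410539, inside this window, and covers the C/EBP match. In Myd88 a STAT match 46 bases before the start, TTCTCGGAA, ran into an interferon regulatory match 40 bases before it, GAAAGCGAAA. The genes highest in liver 3 and lowest in liver 2 were:
Tlr5 (chr1:182954538-182954787, plus strand): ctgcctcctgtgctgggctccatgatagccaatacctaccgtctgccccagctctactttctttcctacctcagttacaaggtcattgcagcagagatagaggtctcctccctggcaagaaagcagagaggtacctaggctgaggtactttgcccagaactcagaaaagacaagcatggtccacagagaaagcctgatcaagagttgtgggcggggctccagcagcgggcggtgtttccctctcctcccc
Ticam1 (chr17:56276768-56277017, minus strand): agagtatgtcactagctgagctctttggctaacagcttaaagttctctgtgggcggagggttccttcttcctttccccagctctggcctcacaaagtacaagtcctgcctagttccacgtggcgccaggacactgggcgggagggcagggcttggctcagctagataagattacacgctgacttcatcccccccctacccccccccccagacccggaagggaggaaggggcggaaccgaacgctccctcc
Irak1 (chrX:74023922-74024171, minus strand): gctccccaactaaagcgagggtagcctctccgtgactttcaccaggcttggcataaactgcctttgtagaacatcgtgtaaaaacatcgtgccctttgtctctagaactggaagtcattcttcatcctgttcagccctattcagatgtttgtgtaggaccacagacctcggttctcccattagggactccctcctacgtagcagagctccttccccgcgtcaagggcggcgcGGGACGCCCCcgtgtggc

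The windows of Tlr5 and Ticam1 held no match to the 4 motifs, and that of Irak1 held a kappa-B match 18 bases before the start, GGGACGCCCC. A second Irak1 window in the table, shifted by 3 bases, holds the same match. The deposited Irak1 span ends at 74023936, within that match. The matches describe these letters and do not show that a factor binds there. No motif was found in all 3 genes of either set.

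The median SD of log2(FPKM + 1) over the 9 expressed members was 0.16, beside 0.16 over all expressed genes. The gap ratio lay between 0.359 and 0.774 in the 10 members, and 0 of 10 were past the critical value, beside 5.64% of expressed genes. Depth bears on the scarce members. Estimated fragments averaged 1404 for Irak1, 984 for Lbp, 352 for Myd88, 352 for Ticam1, 238 for Tlr5, 189 for Tlr3, 118 for Cd14 and 77.6 for Tlr2. The observed coefficient of variation exceeded the counting error for all of these, with 13.7% against 2.67% for Irak1, 19.996% against 3.19% for Lbp, 26.7% against 9.19% for Cd14 and 19.7% against 11.4% for Tlr2.

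**Figure D3:**
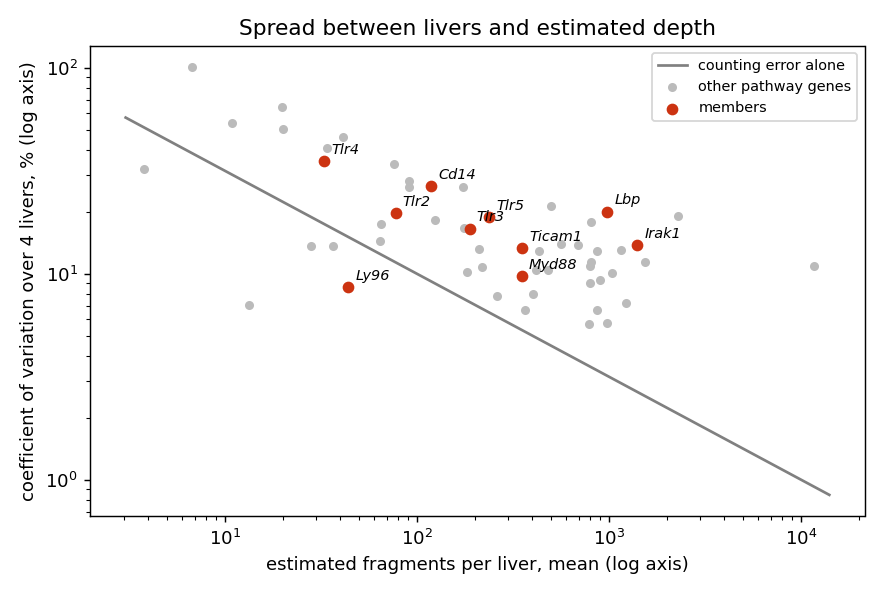
Coefficient of variation over 4 livers in percent against the estimated fragments per liver, both on log axes, for the members (red) and 45 other genes of the pathway (grey), with the grey line at the variation that counting alone would give. Ly96 lies below the line at 8.57%, and the other 9 members lie above it. The line depends on the estimated depth.

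Other genes of the pathway were taken as 45 symbols in 6 lists by role, all of them in the table and 35 of them expressed. Among the other Toll-like receptors 3 of 8 were expressed. Tlr12, which in mice recognises profilin of apicomplexan parasites, had 10.1, 7.80, 11.0 and 10.02 FPKM in livers 1 to 4. It was above each of the 4 member receptors, 2.40 times Tlr5 as a geometric mean and higher in 4 of 4 livers, with the same highest and lowest liver as Tlr5. Tlr13, a receptor for bacterial ribosomal RNA, had 0.609, 1.46, 1.02 and 0.990 FPKM. The nucleic acid receptors Tlr7, Tlr8 and Tlr9 were low, at 0.595 ± 0.275, 0.594 ± 0.243 and 0.320 ± 0.161 FPKM (each SD, n = 4), and Tlr11 was at 0.115 FPKM on an estimated 6.74 fragments.

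Trafficking genes were abundant, with 4 of 4 expressed. Hsp90b1, the endoplasmic reticulum chaperone gp96 on which most Toll-like receptors depend, had 229.5 ± 24.9 FPKM, and Unc93b1, which escorts the endosomal receptors, had 24.4 ± 1.40 FPKM (each SD, n = 4). Among other adaptors 2 of 4 were expressed, and Pik3ap1 (BCAP), which links the receptors to PI3-kinase, was the highest at 18.6 ± 2.13 FPKM (SD, n = 4). All 14 signalling kinases and ligases were expressed, from Chuk (IKK-alpha) at 35.8 ± 6.79 FPKM to Tab3 at 1.53 ± 0.156 FPKM (each SD, n = 4). Tab2 had 14.3 ± 1.86 FPKM, Ikbkb 11.98 ± 0.686 FPKM and the ligase gene Traf6 3.75 ± 0.483 FPKM (each SD, n = 4).

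All 5 transcription factor genes were expressed and all 5 were highest in liver 3, beside 26.4% of all rows. Irf7 had 22.4, 24.1, 33.3 and 27.1 FPKM, Irf3 25.5, 21.8, 28.04 and 21.5 FPKM, and Rela 20.02, 19.3, 24.1 and 21.3 FPKM in livers 1 to 4. Over the 45 genes, 6, 8, 17 and 14 were highest in livers 1 to 4, so liver 3 held 37.8% of them, beside 26.4% of all rows with values above 0 in all livers. Among negative regulators 7 of 10 were expressed, led by Nfkbia (IkB-alpha) at 33.4 ± 3.12 FPKM and Tollip at 17.7 ± 1.27 FPKM (each SD, n = 4). The span given for Nfkbia departs from its GENCODE transcript by 208596 bases, so that row may hold other transcripts. Ly86 (MD-1), the relative of MD-2 that pairs with the receptor homologue CD180, had 10.2, 13.0, 7.65 and 7.63 FPKM, the highest in liver 2 as for Cd14, while Cd180 had 1.35 ± 0.195 FPKM (SD, n = 4). Il1rl1 was at 0.0387 FPKM on an estimated 3.81 fragments.

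**Figure D4:**
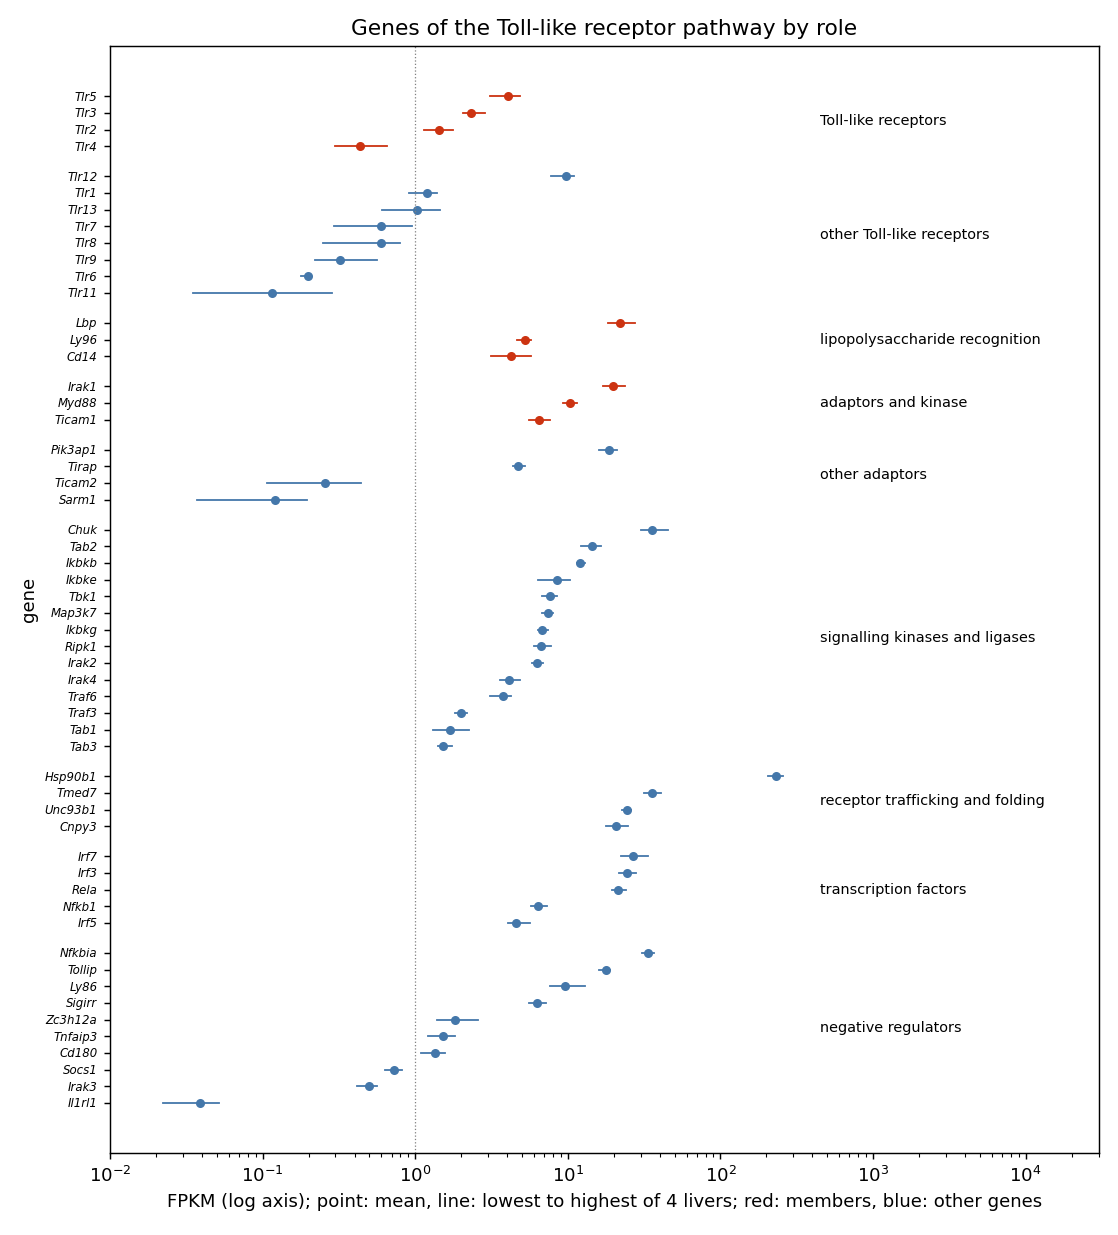
Mean level (point) and the lowest to highest of 4 livers (line) in FPKM on a log axis for the 10 members (red) and 45 other pathway genes (blue), grouped by role, with a dotted line at 1 FPKM. Tlr12 lies above the member receptors, and the adaptors and kinase lie to the right of all 4 of them.

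Genes known to be induced by Toll-like receptor signalling were low to moderate. Of 10 NF-kB target genes 5 were expressed, led by Vcam1 at 7.87 ± 1.73 FPKM, Icam1 at 6.71 ± 0.164 FPKM and Cxcl1 at 6.15 ± 1.43 FPKM (each SD, n = 4), and Il6 was listed at 0 in all livers. Of 8 interferon-induced target genes 7 were expressed, and Ifnb1 was listed at 0 in all livers. Of the 7 that were above 0 in every liver, 6 were lowest in liver 3, beside 29.4% of rows. The row of Cxcl10, 1 of these 6, spans 92331841 to 92414627 on chromosome 5 and may hold other transcripts. Ifit3 had 7.79, 8.43, 5.93 and 8.34 FPKM and Rsad2 had 1.97, 2.204, 0.982 and 1.94 FPKM in livers 1 to 4. Of the 7 NF-kB target genes above 0 in every liver, 2 were highest in liver 2, 3 in liver 3 and 2 in liver 4, beside 24%, 26.4% and 29.9% of rows.

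Acute phase genes and cell type markers are given as levels summed over each list, in which the most abundant genes weigh most. All 12 acute phase genes, the liver's secretory response to inflammation of which Lbp is itself a part, were highest in liver 2, beside 24% of rows, with sums of 8055, 17869, 6750 and 9507 FPKM in livers 1 to 4. The 9 macrophage and Kupffer cell markers, of which 7 were expressed and 0 were at 0 throughout, summed to 187, 246, 183 and 264 FPKM, so that liver 4 and liver 2 were both high. Most of the sum came from Lyz2, at a mean of 114 FPKM, Cd5l, at 41.4 FPKM, and Cd68, at 26.7 FPKM. Of the 9 markers, 5 were highest in liver 4, beside 29.9% of rows, and 1 in liver 1, beside 19.7%. Another 3 (Adgre1, Csf1r and Marco) were highest in liver 2, as were Cd14 and Tlr4, a count near the 24% of rows. In liver 3, where Cd14 was lowest, 7 of the 9 were lowest, beside 29.4% of rows. The 5 monocyte and lipid-associated macrophage markers, all expressed, summed to 67.8, 68.6, 50.5 and 67.0 FPKM, lowest in liver 3 as was Cd14.

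The neutrophil list had 2 of 6 genes expressed and sums of 10.5, 19.2, 11.6 and 8.97 FPKM, carried mostly by S100a8 and S100a9. Of its 4 genes above 0 in every liver, 3 were highest in liver 2, beside 24% of rows, and Csf3r in liver 3 at 1.15 FPKM. Its markers Mpo and Retnlg were each listed at 0 in 1 liver. The row of Elane, 1 of the 3 highest in liver 2, spans 79697305 to 80369637 on chromosome 10 and may hold other transcripts. Endothelial markers (6 of 6 expressed) summed to 42.7, 55.4, 46.2 and 54.3 FPKM, and 5 of the 6 were highest in liver 2, beside 24% of rows. Stellate cell markers (6 of 6) summed to 199, 259, 166 and 188 FPKM, of which Dcn at a mean of 148 FPKM and Col1a1 at 38.03 FPKM made up most. Of the 6, 3 were highest in liver 2, beside 24% of rows, whereas Lrat, with 4.91, 4.18, 4.05 and 3.26 FPKM, and Des, with 3.55, 2.90, 3.11 and 2.22 FPKM, were highest in liver 1 and Reln in liver 4. Hepatocyte markers (7 of 7) had their lowest sum in liver 3, 28312 FPKM, and their highest in liver 4, 36746 FPKM, a sum carried mostly by Apoa1 at a mean of 12970 FPKM and Fabp1 at 10650 FPKM. Hnf4a, with 93.9, 104, 156 and 118 FPKM, and Cps1, with 541, 450, 748 and 617 FPKM, went the other way and were highest in liver 3. Sums of cholangiocyte markers (4 of 4) lay between 17.6 and 21.9 FPKM. Lymphocyte markers (2 of 4) ranged from 2.05 to 3.66 FPKM, with the highest sum in liver 2. Liver 2 also had the highest sum of the cholangiocyte and of the monocyte and lipid-associated macrophage markers. It held the highest value of 1 of 4 and 1 of 5 of these genes, near the 24% of rows. The part of these lists in the levels of the members was not tested.

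**Figure D5:**
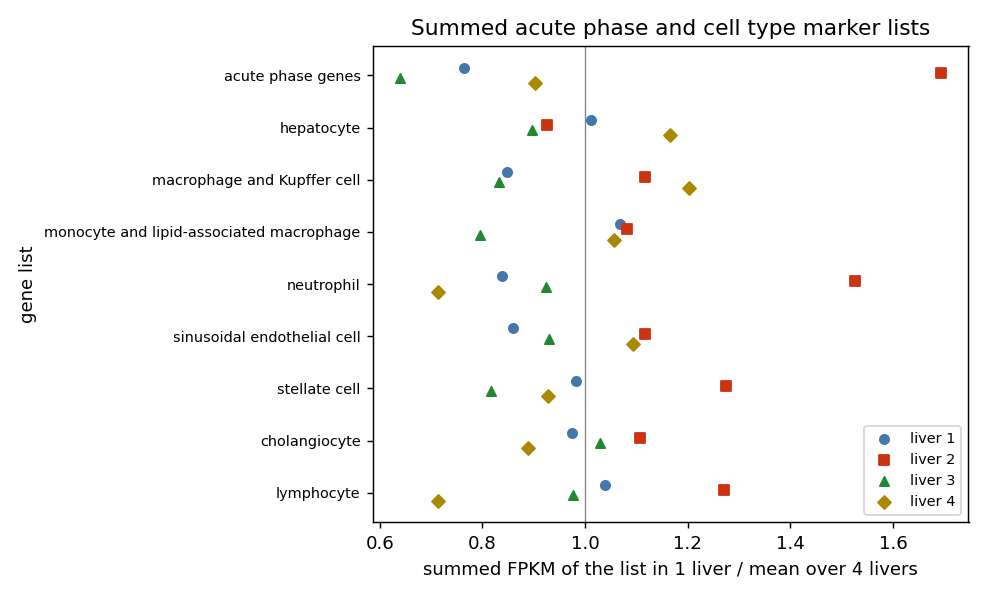
Summed FPKM of the acute phase list and of each cell type marker list in each liver, divided by its mean over 4 livers, with 1 symbol per liver. Liver 2 has the highest sum in the acute phase, neutrophil, stellate, endothelial, cholangiocyte, lymphocyte and monocyte lists, and liver 4 in the hepatocyte and macrophage lists. A sum follows its most abundant genes, and 3 of the 6 stellate and 1 of the 4 cholangiocyte markers were themselves highest in liver 2, beside 24% of rows.

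Genes with the pattern most like that of the widest members were sought among the 6538 rows whose mean reached 5 FPKM. Likeness was the Euclidean distance between deviations from the gene mean in log2(FPKM + 1), and with only 4 livers close matches arise among many genes. For Cd14 the nearest were Rnf113a2 (distance 0.04), Fundc1 (0.05) and Tmem256 (0.08), and 5 genes lay within 0.1. For Lbp they were 0610009B22Rik (0.04), Commd6 (0.04) and Vcam1 (0.05), and 21 genes lay within 0.1. Tmem256 had 112, 157, 93.6 and 105 FPKM in livers 1 to 4, and Commd6 had 25.9, 37.3, 25.1 and 31.9 FPKM. Both share the high value of liver 2.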

How the data were processed

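Gene expression was measured by RNA sequencing of 4 livers. The authors deposited a table with 1 value per gene and liver. Per the submitters' processing notes, the tools were FastQC 0.10.1, Trim Galore 0.6.3, cutadapt, STAR 2.7.6a and Cufflinks 2.2.1, and the build was mm10. The unit is not stated, and the deposited values were taken as FPKM from the tools, the identifiers and the column totals of 516816 to 570681. Each value column carries the description of 1 sample, and 0 columns lacked a sample.

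Starts were raised by 1, after which 52.2% of 22482 equalled RefSeq GRCm38.p6, against 3.01% as deposited. FPKM holds no counts. Depth was estimated from genes with 1 transcript longer than 800 bases in GENCODE M21, as the median of FPKM times length less 200 bases between 25 and 75. Subtracting 100 or 300 bases with the same window gave 18.2 to 21.1 M. The window limits the depths that can be returned and no other window was run, so the depth was not measured independently of it. Fragments per gene are approximate, and counting errors derived from them cover counting only.

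Mean levels with their SDs, coefficients of variation, sums, gap ratios and the highest and lowest livers were taken on FPKM itself. Ratios between genes are plain ratios of FPKM or their log2. Deviations, the SDs set beside all expressed genes and the pattern distances used log2(FPKM + 1), which understates differences of low genes. The work was done with Python 3.11.15 and numpy 2.4.6. A gene counted as expressed when its mean reached 1 FPKM. With 1 group there was no test between groups, and no p-value is given. The procedures were tested on simulated data, which checks the code only. With 4 livers, a gap ratio below the critical value does not show that no liver departs from the others. A further gene of the lymphocyte list is not reported here, and the sums cover the other 4. Members and lists were chosen with earlier results of these data known. Named genes are the members, the highest genes of each list, those past Dixon's critical ratio, and the 3 genes nearest in pattern to members at or above the 80th percentile of SD. Other genes are named for their role or after their values were seen. Alternatives were 2 other pseudocounts, other minimum levels, median-ratio scaling and leaving out each liver.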

Additional observations from a re-analysis of the deposited data

Results flagged for a closer look

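The distance of the most extreme liver from its neighbour, as a share of the whole range, was past Dixon's critical ratio for 12 of the 130 list genes with a value above 0 in any liver and for 0 of the 10 members. Chance alone marks about 1 in 20 such groups. Among pathway and target genes, the ratio was 0.902 for Tlr9, with liver 4 high at 0.560 FPKM beside 0.219 to 0.253 FPKM elsewhere, on an estimated 20.2 fragments on average. Ccl5 had a ratio of 0.931, with liver 3 low at 5.42 FPKM, and Isg15 a ratio of 0.868, with liver 4 high at 13.0 FPKM. Tnf had a ratio of 0.917, with liver 2 low at 0.129 FPKM.

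In the acute phase list 6 of 12 genes were past the value, each through a high liver 2. The ratios were 0.955 for Saa1, 0.969 for Saa2, 0.911 for Lcn2, 0.938 for Orm1, 0.857 for Orm2 and 0.834 for Itih4. Saa1 and Saa2 are near-identical, so their values are not independent.

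Among cell type markers the ratio was 0.884 for Apoa1, high in liver 4, and 0.921 for Ly6c2, low in liver 3. The summed monocyte and lipid-associated macrophage markers had a ratio of 0.91, with liver 3 low, and were the 1 sum past the critical ratio among 20 list sums.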

How the results depend on the processing

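Mean levels of the 10 genes moved by less than 1 SD under median-ratio scaling. Without any 1 of the livers they also moved by less than 1 SD. Leaving out 1 of 4 livers can never move a mean that far, so this comparison says nothing about stability. The counts of members stayed within 1.5 times those reported under the alternatives run. The number of expressed members was 9, and 8 with a minimum of 2 FPKM. The median SD, 0.16 as reported, was 0.22 with a pseudocount of 0.1 and 0.11, more than 1.5 times lower, with 5, beside 0.19 and 0.11 over all expressed genes. Without a filter on low values it was 0.16, beside 0.09 over all 24138 rows, and with median-ratio scaling 0.17 beside 0.16. Without livers 1 to 4 in turn it was 0.20, 0.14, 0.18 and 0.19, beside 0.17, 0.15, 0.14 and 0.15 over all expressed genes, so the members were above the general median without livers 1, 3 and 4 and below it without liver 2. Of 9 neighbouring pairs, 7 kept their order without liver 2 and 9 without any other liver. Scaling and the log2 scale, both added after the data were seen, left 0 members past the critical gap ratio. No paired analysis was possible because the samples form 1 group. Depth limits Tlr4, Ly96 and Tlr2, which rest on an estimated 32.8, 43.9 and 77.6 fragments per liver.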
